A study of Mus musculus with 20 samples.

Results

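Blood drawn 10 days after mice were given hepatoma cells was compared with blood of the same mice drawn before. The comparison used 8 of the 20 arrays of the series: the 4 labelled day 10 and the 4 labelled day 0, matched by the mouse number in the label. The animals were 4 female C57Bl/6 mice, numbered 305, 310, 315 and 320, whose age the labels do not give. Between the bleeds each had received cells of Hepa1-6, a mouse hepatoma line, under the skin, so day 0 is each mouse's own state before inoculation and mice without tumour cells on the later day were not analysed here. Whole blood went into RNAlater, and its RNA was labelled with Cy5 and hybridised on an Agilent 2-colour array beside a common reference, labelled with Cy3, from untreated female C57Bl/6 blood. A level below is the log2 ratio of the mouse sample over that reference after loess within the array, and a change is day 10 minus day 0 on that log2 scale, with its standard error (SE) and with n = 4 arrays a day unless another n is given.

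Whole blood RNA is a mixture. Neutrophils supply much of its inflammatory message, young red cells supply globin and the transcripts of heme and membrane synthesis, and lymphocytes, monocytes and platelets add their own. A tumour can alter this mixture through the cytokines it induces, which act on the bone marrow and on the circulating cells. In such bulk samples fewer cells of a type and less RNA per cell cannot be told apart.

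Day and slide cannot be told apart, since each day had a slide of its own. The reference RNA, the same on every array, had a median net Cy3 intensity of 79.6 to 110 on day 0 and of 10.6 to 14.4 on day 10, and the Cy5 medians were 50.1 to 69.6 and 17 to 21.1. After loess the mean log2 ratio of the 10 spike-in probes was 0.55 higher at day 10 than at day 0. By array it was -0.95 to -0.25 on day 0 and -0.50 to 0.17 on day 10. The part of this shift in the higher and lower calls was not tested. The day 0 array of mouse 320 stood apart: over all genes its levels correlated on average at 0.410 with the other day 0 arrays and at 0.610 with those of day 10, while the other day 0 arrays had averages of 0.471 to 0.578 and of 0.0673 to 0.332. Counts are therefore also given without it where it moved them by more than 1.5 times. Markers of neutrophils, monocytes, B cells, T cells, platelets and red cells were well above background on all 8 arrays, Ncr1 of NK cells on 6, and the liver genes Apoa1 and Ttr on 0.

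Of 15161 genes tested with limma, 764 were higher at day 10 and 1372 lower at an adjusted p under 0.05, which is 5.04% and 9.05%. Of these 2136 genes 1953 changed in the same direction in every mouse measured. A change of at least 2-fold was found for 44 higher and 12 lower genes, with an all-gene median change of -0.02. Of the 12 lowest genes S100a8, S100a9, Hp, Lrg1 and Slpi were in the neutrophil list, and the 12 highest were bright probes. The count of higher genes was 282 without the day 0 array of mouse 305, 449 without that of mouse 310, and 396 and 363 without the day 10 arrays of mice 315 and 320. The count of lower genes was 563 without the day 0 array of mouse 305, 907 without that of mouse 315, and 705, 772 and 878 without the day 10 arrays of mice 305, 315 and 320. Without the day 0 array of mouse 320 the counts were 991 and 1675.

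The neutrophil list had the lowest median of the 46 lists. The lists were chosen with earlier results of these data known, so this rank is no separate support. Ptprc, the CD45 antigen of all leukocytes, was lower too, by 0.56 (limma adjusted p = 0.00806). Its part in the falls of single cell types was not tested. S100a9, a chain of the calcium-binding protein calprotectin that fills the neutrophil cytosol, had levels of 0.59, 2.05, 1.69 and 1.72 in mice 305, 310, 315 and 320 at day 0 and of -0.77, -0.59, -0.06 and -0.64 at day 10. It fell by 2.03 (SE 0.27, limma adjusted p = 0.000741), with the 4 arrays of day 10 below all those of day 0. S100a8, its partner, had 0.67, 1.52, 1.66 and 1.72 at day 0 and -0.86, -0.51, -0.04 and -0.35 at day 10. It fell by 1.83 (SE 0.23, limma adjusted p = 0.000549), again without overlap. Mouse 305 had the lowest level of both genes on both days. Within the mice the changes were -1.37, -2.64, -1.75 and -2.36 for S100a9 and -1.53, -2.03, -1.70 and -2.07 for S100a8, in the same order.

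The bases before the RefSeq start of this pair are shown because the 2 neighbouring genes on chromosome 3 fell together and because Cebpd, a C/EBP factor, fell with them. Capitals mark each match to the C/EBP-like motif TTNNGNAA or to its reverse complement TTNCNNAA, so that both strands were searched. The sequences are those of RefSeq on GRCm38.p6, the 250 bases before the start, 5′ to 3′ on the strand of the gene.
S100a9, chr3:90695722-90695971, minus strand: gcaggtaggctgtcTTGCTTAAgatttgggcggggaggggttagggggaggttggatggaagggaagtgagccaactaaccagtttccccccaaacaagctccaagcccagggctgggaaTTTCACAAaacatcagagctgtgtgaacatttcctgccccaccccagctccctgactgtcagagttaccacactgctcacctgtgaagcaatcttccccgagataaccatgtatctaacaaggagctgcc
S100a8, chr3:90668821-90669070, plus strand: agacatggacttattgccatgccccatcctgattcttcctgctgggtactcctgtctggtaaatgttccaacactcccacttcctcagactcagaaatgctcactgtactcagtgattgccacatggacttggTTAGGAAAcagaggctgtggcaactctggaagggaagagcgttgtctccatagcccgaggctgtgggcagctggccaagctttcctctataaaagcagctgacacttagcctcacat
The S100a9 window holds 2 matches, which begin 236 and 130 bases before the start, and the S100a8 window holds 1, at 117 bases. This short motif occurs in 36.8% of all 32851 promoter windows of the same length, so a match is a description and no sign of a site.

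Of the 30 tested members of the list of neutrophil calprotectin and surface genes 14 fell and 1 rose, with a median change of -0.44. The count of 14 stayed between 13 and 15 when any 1 of the 8 arrays was left out. The list medians within mice 305, 310, 315 and 320 were -0.56, -0.58, -0.08 and -0.55, so that of mouse 315 was near 0. Hp, which makes haptoglobin, the plasma protein that binds free haemoglobin, had 0.46, 0.89, 0.89 and 0.96 at day 0 and -0.84, -0.46, -0.16 and -0.52 at day 10 (change -1.29, SE 0.24, limma adjusted p = 0.00276). Lrg1, a leucine-rich glycoprotein of neutrophil granules, fell by 1.22 (SE 0.28) from between 0.60 and 1.27 to between -0.62 and 0.17. Slpi, an inhibitor of neutrophil elastase, fell by 0.98 (SE 0.16), and Mmp8, neutrophil collagenase, by 0.87 (SE 0.17). Cxcr2, the receptor that draws neutrophils towards chemokines, had 0.24, 0.44, 0.21 and 0.67 at day 0 and -0.61, -0.18, -0.31 and -0.74 at day 10 (change -0.85, SE 0.21, limma adjusted p = 0.0131), while its other probe changed by -0.22. The markers Retnlg (-0.88) and Csf3r (-0.71), the receptor of the growth factor of granulocytes, fell too. For each of these 7 genes every day 10 level lay below every day 0 level, as for 12.1% of all genes tested. The 1 member that rose was Stfa3, a cysteine protease inhibitor (0.96). Retnlg, Csf3r and Stfa3 were named after their values were seen.

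**Figure D1:**
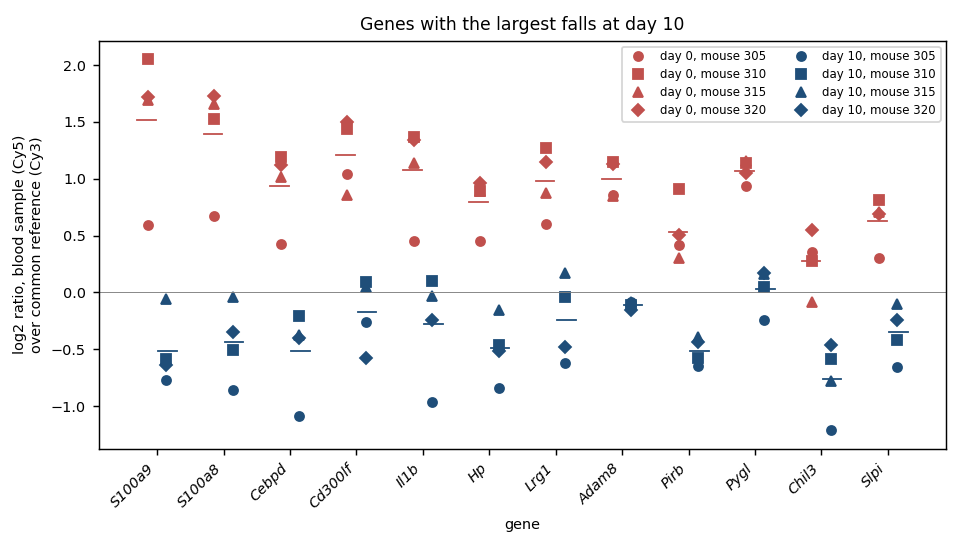
Log2 ratio over the common reference of the 12 lowest genes, on each of the 8 arrays. They are the lowest of the called genes with an official symbol, a value on all 8 arrays and the same sign in every mouse. Symbols stand for mice, red for day 0 and blue for day 10, and short lines for the mean of a day. For every gene shown the 4 day 10 levels lie below the 4 day 0 levels, as for S100a9 with 0.59 to 2.05 against -0.77 to -0.06. Over all genes tested this held for 12.1%.

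The granule proteins that neutrophils make while still in the marrow were mostly measured by dim probes. With the genes in 10 equal classes from dim to bright, this list had a median class of 2. In that class 4 of 1516 genes were called lower, and over all genes 9.05% were. Of 9 tested members 2 fell, Chil3 by 1.03 (SE 0.22) and Serpinb1a by 0.32, and the list median was -0.01. Chil3, a chitinase-like lectin, had 0.36, 0.27, -0.09 and 0.55 at day 0 and -1.21, -0.59, -0.78 and -0.46 at day 10. Serpinb1a no longer passed the test when any 1 of 6 arrays was left out (highest adjusted p 0.0944). The list of genes associated with myeloid suppressor cells had 4 lower members of 15, of which S100a8 and S100a9 were 2, the others being Stat3 and Cebpb.

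Some receptors of phagocytes were lower as well, while most members of their lists did not pass. Of 19 Fc receptors and integrins 5 fell and 1 rose, at a median brightness class of 10. Class 10 held 351 lower genes of 1516. Of 17 chemotaxis receptors 3 fell, and 1 without the day 0 array of mouse 320. Of 17 C-type lectins and CD300 receptors 6 fell and 1 rose, with a median of -0.27. Their median class was 7, in which 167 of 1516 genes were lower, against 9.05% of all genes. Cd300lf, an inhibitory receptor of myeloid cells, had 1.05, 1.44, 0.85 and 1.50 at day 0 and -0.26, 0.10, 0.05 and -0.58 at day 10. It fell by 1.38 (SE 0.19, limma adjusted p = 0.000741) by its brightest probe, while its other probe changed by -0.17. Clec7a, which recognises fungal glucan, fell by 0.98 (SE 0.14) from between 0.75 and 1.02 to between -0.48 and 0.11. Clec4d, another receptor for fungal surfaces, fell by 0.83 (SE 0.17), and Sirpa, a receptor for a signal of self, by 0.52 (SE 0.12). Cd300lg, a member of the CD300 family made by endothelium, was the 1 gene of its list that rose, by 0.98 (SE 0.19). Its day 10 levels of 0.84 to 1.04 lay above the -0.51 to 0.24 of day 0.

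Among sensors of microbes and the oxidase most members did not pass the test. Among 17 Toll-like receptors and adaptors 5 were lower and 1 higher (median -0.08). The count of 5 was 1 without the day 0 array of mouse 305, and the higher count was 0 without that of mouse 320. Tlr2, the receptor for bacterial lipoproteins, fell by 0.38 (SE 0.08), from between 0.12 and 0.42 to between -0.21 and 0.01. Of the 8 genes of the phagocyte NADPH oxidase, which makes the oxidative burst, 2 fell, Ncf4 among them by 0.41 (SE 0.09). By contrast no gene of 21 in the list of monocytes and macrophages passed limma's test, at a median of -0.11. Of these, 3 had an unadjusted p under 0.05, and without the day 0 array of mouse 320 the lower count was 1. In that list Csf1r, the receptor that keeps monocytes alive, changed by 0.09 (SE 0.16, limma adjusted p = 0.753) and Ccr2, which calls them out of the marrow, by -0.25 (limma adjusted p = 0.233), the latter named after its value was seen. Whether neutrophil and monocyte genes differed in their change was not tested.

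Among cytokine genes and their signal relays the calls were all lower, though most members did not pass. Il1b, the precursor of a main cytokine of fever, had 0.46, 1.37, 1.14 and 1.34 at day 0 and -0.96, 0.10, -0.03 and -0.24 at day 10. It fell by 1.36 (SE 0.26, limma adjusted p = 0.00359) without overlap. Casp4, the caspase that senses lipopolysaccharide inside the cell, fell by 0.66 (SE 0.09), from 0.72, 0.50, 0.41 and 0.50 to -0.26, -0.02, -0.13 and -0.08. These were the 2 members called of the 13 tested in the interleukin 1 and 18 system, and the count was 4 without the day 0 array of mouse 320.

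Of 26 JAK, STAT and SOCS genes 8 fell and none rose (median -0.11). Stat3, which relays interleukin 6 and the granulocyte growth factor, had 0.19, 0.23, 0.34 and -0.14 at day 0 and -0.81, -0.59, -0.54 and -0.51 at day 10. Its brightest probe fell by 0.77 (SE 0.10, limma adjusted p = 0.000741), and its other probe changed by -0.03. Socs3, the inhibitor that Stat3 itself switches on, had 0.19, 0.81, 0.85 and 0.69 at day 0 and -0.22, 0.07, 0.21 and -0.07 at day 10. It fell by 0.64 (SE 0.14, limma adjusted p = 0.00574), lower within each of the 4 mice, although the day 10 level of mouse 315 lay above the day 0 level of mouse 305. Csf2ra (-0.56) and Csf2rb (-0.68), the chains of the receptor for the growth factor of granulocytes and macrophages, and Ifngr1 (-0.58), a chain of the interferon gamma receptor, fell too. The other kept probe of Csf2rb changed by 0.69, in the opposite direction.

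The 250 bases before the start of Socs3 are shown because this gene is a known target of Stat3 and both fell. Capitals mark the STAT-like motif TTCNNNGAA, which reads the same on both strands, from RefSeq on GRCm38.p6.
Socs3, chr11:117969367-117969616, minus strand: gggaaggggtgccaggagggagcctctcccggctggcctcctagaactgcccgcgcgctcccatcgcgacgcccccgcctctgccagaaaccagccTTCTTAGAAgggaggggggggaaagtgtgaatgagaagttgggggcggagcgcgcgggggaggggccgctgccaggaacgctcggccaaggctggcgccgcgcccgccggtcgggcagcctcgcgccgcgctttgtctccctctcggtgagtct
The single match begins 154 bases before the start, and 7.02% of all windows hold this motif.

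Transcription factors of myeloid genes were represented by Cebpd, which drives acute inflammatory genes. It had 0.43, 1.19, 1.01 and 1.12 at day 0 and -1.09, -0.20, -0.37 and -0.40 at day 10, a fall of 1.45 (SE 0.22, limma adjusted p = 0.00104) with no overlap. Cebpb fell by 0.64 (SE 0.18), a call that ended without the day 0 array of mouse 305 or 310 or the day 10 array of mouse 305 (adjusted p up to 0.103). They were the 2 of 9 tested members of that list that passed. Of 20 immediate early genes 4 fell and none rose. Junb, a subunit of AP-1, fell by 0.91 (SE 0.15), from between 0.34 and 0.85 to between -0.61 and -0.17. Mcl1, which keeps granulocytes from apoptosis, fell by 0.67 (SE 0.10), from between -0.12 and 0.20 to between -0.73 and -0.63, and its other probe by 0.69.

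How firmly a call stands depends on the scaling of the arrays, because the 2 days differed in brightness. With the median of the genes tested in place of loess (1 median per array), the dimmest 10% of the genes changed by a median of 0.48 and the brightest by -1.06. With loess these medians were 0.00 and -0.06. The brightest 10% held 321 of the 764 higher and 351 of the 1372 lower genes. Of the higher genes 442 changed direction with 1 median per array and 141 with the Cy5 channel alone, against 8 and 163 of the lower genes. With scaling between arrays 810 of the 2136 calls were kept, and 51 of the genes described here no longer passed, at adjusted p of 0.0846 (Tcf7) to 0.597 (Hbb-bh1 and Stfa3). These were all 5 globin genes, the highest genes 2610524H06Rik, Aqp2, Cox17, Fbxl19, Klf2, Oaz1, Rhox4e, Sprr1a, Stbd1, Ube2l6 and Irf7, and the higher genes Cd300lg, Ftl1, Gabarapl2, Ifitm3, Isg15, Mki67, Ppox, Rplp0, Rsad2, Stfa3 and Tfam. The lower ones were Ccnd2, Cebpb, Chil3, Clk1, Clk4, Csf2ra, Ets1, Hnrnpa1, Ifngr1, Junb, Mcl1, Mrpl33, Ncf4, Parp14, Pou2af1, Prkcb, Retnlg, Rpl36, Rtp4, Satb1, Serpinb1a, Ptprc, Tcf7 and Txk.

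The choice of probe mattered as well. With the mean of all kept probes in place of the brightest, the calls of Cebpb (adjusted p = 0.0772), Clk4 (0.125), Csf2rb (0.983), Ets1 (0.052), H19 (0.0522), Klf2 (0.0742), Rsad2 (0.0733), Sptb (0.0621) and Tfam (0.0517) ended. The change was smaller by more than 1.5 times, with the call kept, for Cox17 (0.72), Gabarapl2 (0.65), Hbb-bh1 (0.40), Hnrnpa1 (-0.31), Parp14 (-0.37), Prkcb (-0.24), Sirpa (-0.20), Tcf7 (-0.25) and Txk (-0.30), and for Cd300lf, Cxcr2, Fbxl19, Pygl and Stat3, whose other probes are given where they are described.

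**Figure D2:**
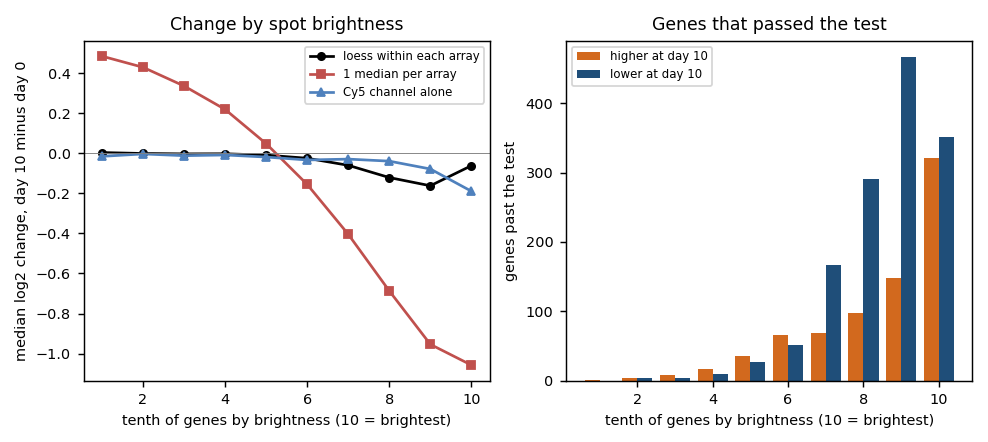
On the left, the median log2 change from day 0 to day 10 in each of 10 equal classes of the genes by brightness, under 3 ways of scaling. On the right, bars count the genes higher (orange) and lower (blue) at day 10 that passed the test in the same classes, with 321 and 351 in the brightest. The curve for 1 median per array runs from 0.48 to -1.06, while the curve for loess lies between -0.16 and 0.00.

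Over 22 alternatives of scaling, background, filter, probe choice, pairing and left-out arrays, 50 genes kept their call, 0.33% of those tested. Of these 50 genes 49 had all day 10 levels below all day 0 levels, against 12.1% of all genes tested. Selection on these same arrays made that likely, so it is no separate support. All 50 were lower at day 10, and no higher gene kept its call in all. The scalings by a median lowered the brightest genes most, so the choice of alternatives bears on this direction. Where a scaling moved the median of all genes by more than 0.1, changes were counted relative to that median. The count of 12 higher genes with the median of all probes was made without this step and did not decide which calls were kept. Besides the genes described above, the set held Adam8, a metalloprotease of the granulocyte surface, with 0.85, 1.14, 0.85 and 1.13 at day 0 and -0.09, -0.11, -0.08 and -0.16 at day 10 (change -1.10, SE 0.13, limma adjusted p = 0.000444). Its day 10 levels were close to each other and far below those of day 0. Genes of cell death and inflammasomes in the set were Gsdme, which makes a pore-forming gasdermin (-0.91), and Mefv, which encodes pyrin (-0.81). Genes of glycogen were Pygl, glycogen phosphorylase (-1.04, with -0.13 by its other probe), and Ppp1r3d, a subunit that brings a phosphatase to glycogen (-0.79). Gsr, which restores reduced glutathione, fell by 0.72 (SE 0.11), from between 0.78 and 0.86 to between -0.20 and 0.32. Slc2a1, the glucose transporter GLUT1, fell by 0.45, Gpr65, a sensor of protons, by 0.42, and Atg3, an enzyme of autophagosome formation, by 0.39. These members were singled out after their values were seen. Of the 46 windows of the 39 genes of this set that had one, 23 (50%) held the C/EBP-like motif, against 36.8% of all windows. The STAT-like motif TTCNNNGAA was in 2 (4.35%), against 7.02%. These shares only describe genes picked by their results, some with more than 1 window, and were not tested.

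Genes of red cells leaned the other way, and many of their calls, though not all, ended when 1 array was left out. All 5 tested genes of the globin list rose, with a median of 0.83, which was -0.19 with the median of the genes tested in place of loess. Hbb-y, an embryonic beta-like globin, had -0.59, -0.03, 0.13 and 0.27 at day 0 and 0.93, 0.89, 0.84 and 0.83 at day 10 (change 0.93, SE 0.19, limma adjusted p = 0.00516). Hbq1a, a theta globin, rose by 0.83 (SE 0.15). Hba-a1, an adult alpha globin, had no usable spot for mouse 310 at day 0 and was saturated on 4 arrays, so the size of its change is not exact. Its other levels were -0.36, 0.33 and 0.54 at day 0 and 1.72, 1.27, 1.17 and 1.35 at day 10 (change 1.21, SE 0.37, n = 3 and 4, limma adjusted p = 0.0389, and 0.0502 with the mouse as a block). Its call also ended when any 1 of 5 arrays was left out (highest adjusted p 0.188). Hbq1b (0.75) lost its call without the day 0 array of mouse 305 (adjusted p = 0.0544), and Hbb-bh1 (0.72) when any 1 of 4 arrays was left out (highest adjusted p 0.101). Globin genes are near copies of each other, so probes can share signal, and 2 of the 5 passed without the day 0 array of mouse 305.

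Of 23 genes of the red cell membrane and blood groups 22 had a change above 0, but only 2 passed the test higher, at a list median of 0.43, which was -0.23 with the median of the genes tested in place of loess. The 1 lower member was Slc2a1. The mouse-by-mouse medians were 0.56, 0.32, 0.57 and 0.06 for mice 305, 310, 315 and 320. Without the day 0 array of mouse 320 the higher count was 14, without that of mouse 305 it was 0, and with the mouse as a block it was 10. Slc4a1, the anion exchanger band 3, shows the pattern: its levels were -0.48, 0.30, -0.39 and 1.01 at day 0 and 0.84, 1.07, 1.07 and 0.45 at day 10, higher in 3 mice and lower in mouse 320 (change 0.75, SE 0.27, limma adjusted p = 0.0728, and 0.00451 without the day 0 array of mouse 320). Dmtn, which ties spectrin to actin, rose by 0.65 (SE 0.16), with a call that ended without the day 0 array of mouse 305 (adjusted p = 0.057). Sptb, the beta chain of spectrin, rose by 0.57 (SE 0.16), with a call that ended when any 1 of 5 arrays was left out (highest adjusted p 0.0941).

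Other genes of late red cells had the same dependence. Of 20 erythroid transcription factors and late markers 4 rose and 1 fell (median 0.40, and -0.28 with the median of the genes tested in place of loess). Without the day 0 array of mouse 320 the count of higher genes was 10, without that of mouse 305 it was 1, and with the mouse as a block 8. Ube2l6, a ubiquitin-conjugating enzyme listed with the late markers, had -0.80, -0.26, -0.35 and 0.31 at day 0 and 1.13, 0.59, 1.02 and 0.69 at day 10 (change 1.13, SE 0.19, limma adjusted p = 0.00146). Klf1 and Gata1, the master factors of the lineage, changed by 0.06 and 0.22 and did not pass, while Gata1 passed with the mouse as a block (adjusted p = 0.0414) and without the day 0 array of mouse 320 (0.0255). In autophagy and mitochondrial clearance, by which a reticulocyte removes its organelles, 7 of 23 rose and 2 fell (median 0.22, and -0.33 with that scaling), and 12 rose without the day 0 array of mouse 320 against 3 without that of mouse 305. Gabarapl2, a membrane tag of autophagosomes, had -0.77, 0.20, -0.16 and 0.21 at day 0 and 1.26, 0.87, 0.87 and 0.82 at day 10 (change 1.08, SE 0.21). Ftl1, the light chain of ferritin, rose by 0.92 (SE 0.21), and Ppox, an enzyme of heme synthesis, by 0.59 (SE 0.13). The part of the slide and of the day 0 array of mouse 320 in these changes was not tested.

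**Figure D3:**
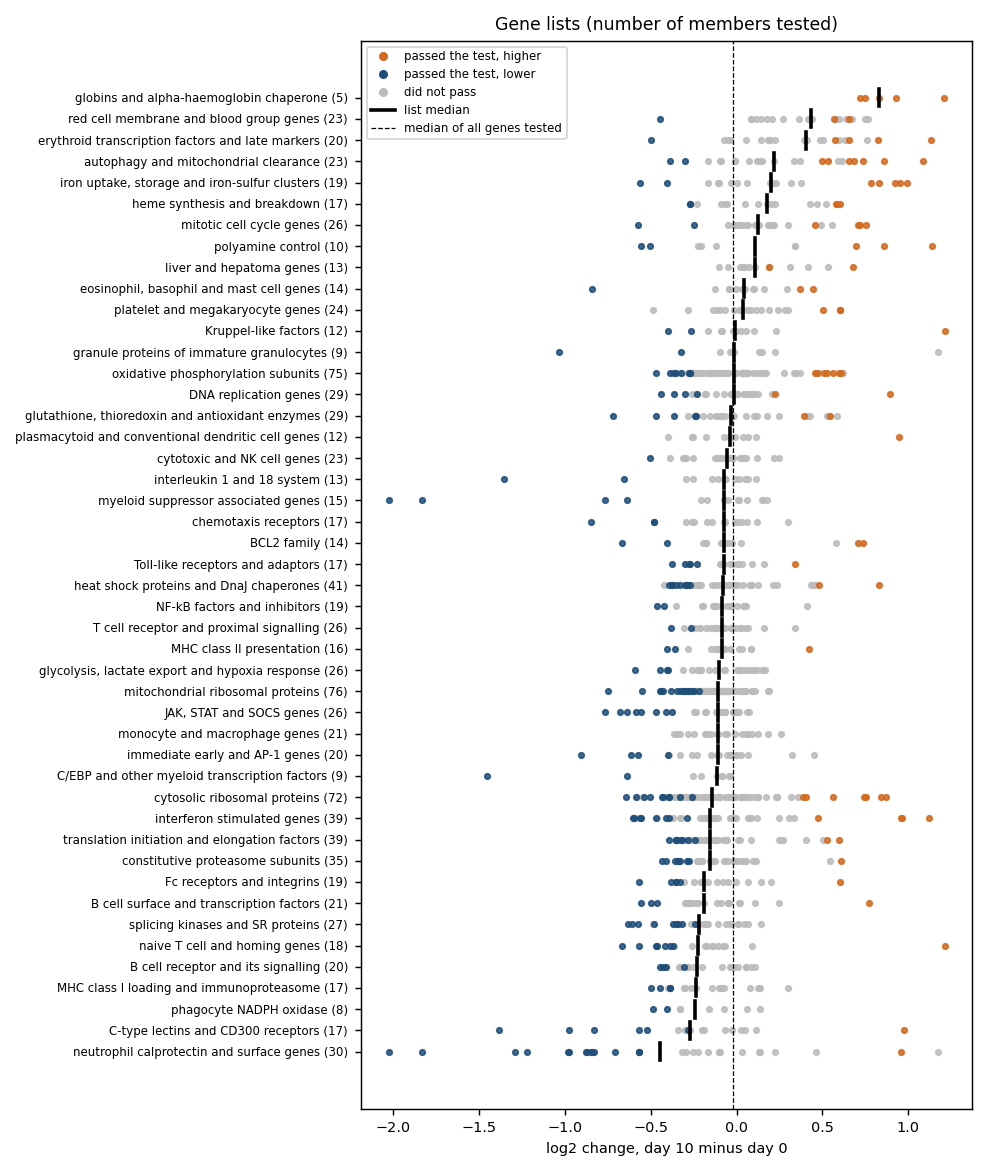
Change of each tested member of the 46 gene lists, with 1 list per row, ordered by list median. Points are genes, coloured where they passed the test, black bars are list medians and the dashed line is the median of all genes. The globin list lies highest with a median of 0.83 and the neutrophil list lowest with -0.44. The lists were chosen with earlier results of these data known.

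The 12 highest genes, taken by the rule given with the counts, all lay in the brightest 2 of these 10 classes. Hba-a1, which lacked a value on 1 array, was not eligible. Stbd1, which anchors glycogen to membranes, rose by 1.36 (SE 0.45, limma adjusted p = 0.0491). Its day 10 level was 3.51 in mouse 320 and 0.55 to 0.66 in the other mice, and its call ended when any 1 of the 4 day 0 arrays was left out (highest adjusted p 0.15). Oaz1, the inhibitor of polyamine synthesis, rose by 1.14 (SE 0.19), and 2610524H06Rik by 1.26 (SE 0.15).

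Several of the 12 highest genes are known from tissues other than blood. Aqp2 is a water channel of the kidney, Sprr1a a protein of the skin envelope and Rhox4e a homeobox gene of reproductive tissue. Rhox4e had -0.40, -0.18, 0.22 and 0.17 at day 0 and 1.08, 1.10, 1.07 and 1.16 at day 10 (change 1.15, SE 0.21). Sprr1a differed from it by at most 0.0347 on any of the 8 arrays, and Fbxl19, a gene of an F-box protein (change 1.15, SE 0.17), by at most 0.172 from Rhox4e. The 2 genes Klf2, a factor of quiescent lymphocytes, and Cox17, a copper chaperone, were as close to each other, with a largest difference of 0.138. These pairs were picked after their values were seen, and the probe sequences were not used here. Klf2 rose by 1.21 (SE 0.23) by its brightest probe while its other probe fell by 0.53, and Fbxl19 changed by -0.07 by its other probe. With the Cy5 channel alone Aqp2 changed by -0.48 and Fbxl19 by -0.67.

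**Figure D4:**
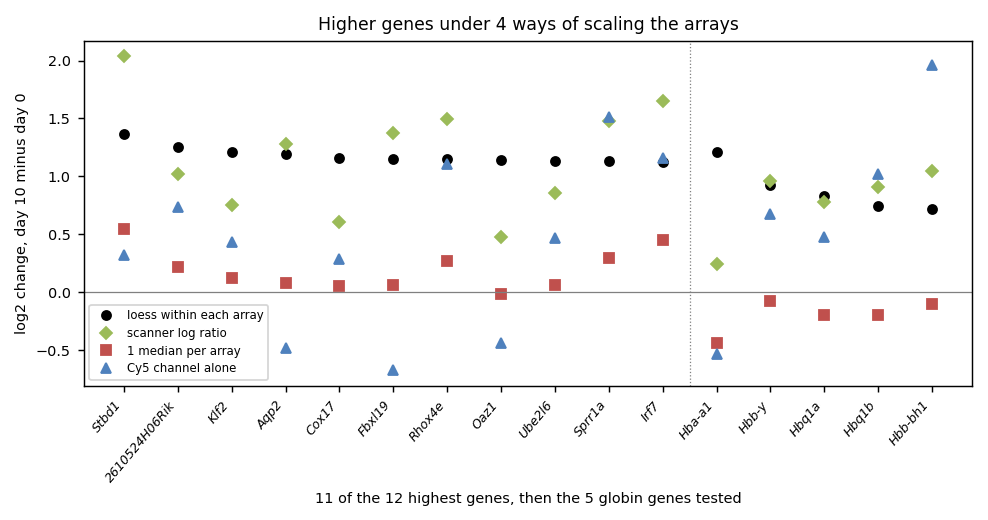
Log2 change from day 0 to day 10 of 11 of the 12 highest genes and of the 5 tested globin genes under 4 ways of scaling the arrays. Black circles are the values of the main fit with loess. With 1 median per array (red squares) these 11 genes lie between -0.01 and 0.54 and the globin genes below 0.

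Genes that interferon switches on moved in both directions. Of 39 tested members 4 rose and 8 fell, with a median of -0.15. The median brightness class of this list was 8, in which 97 of 1516 genes were called higher and 291 lower. Over all genes 5.04% were called higher and 9.05% lower. Whether this list differed from genes of like brightness was not tested. Irf7, the factor that amplifies type I interferon, had 0.20, 0.06, 0.10 and 0.96 at day 0 and 1.23, 1.34, 1.60 and 1.64 at day 10. It rose by 1.12 (SE 0.24, limma adjusted p = 0.00635) without overlap, and its changes at days 15, 20 and 25, which share the same day 0 arrays, were 0.36, 0.62 and -0.47. Isg15, a ubiquitin-like modifier, had -0.50, -0.22, -0.30 and 0.71 at day 0 and 0.75, 0.89, 1.14 and 0.74 at day 10 (change 0.96, SE 0.24, limma adjusted p = 0.0141). Its call ended without the day 0 array of mouse 305 or the day 10 array of mouse 315 (adjusted p up to 0.0642). Ifitm3, which blocks entry of viruses, rose by 0.47 (SE 0.09), from between 0.33 and 0.66 to between 0.88 and 1.04. Rsad2, the antiviral enzyme viperin, rose by 0.96 (SE 0.29) but was lower in mouse 320, and its call ended when any 1 of 6 arrays was left out (highest adjusted p 0.15). With 1 median per array Isg15, Ifitm3 and Rsad2 had changes of -0.01, -0.47 and -0.14, and Irf7 of 0.45.

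In the same list Parp14, a mono-ADP-ribosyltransferase, fell by 0.55 (SE 0.09, limma adjusted p = 0.00169), from 0.38, 0.22, 0.41 and 0.12 to -0.44, -0.08, -0.39 and -0.17. Zbp1, a sensor of Z-form nucleic acid, fell by 0.60 (SE 0.14), and its day 0 level was 1.11 in mouse 305 and 0.31 to 0.42 in the others. Rtp4, an interferon-induced membrane protein, fell by 0.61 (SE 0.15), with a call that ended without the day 10 array of mouse 305 (adjusted p = 0.0506). Ifit1, a classical member, changed by 0.30 and did not pass (adjusted p = 0.248). Without the day 0 array of mouse 305, 2 members were called higher and 3 lower.

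The 250 bases before the start of Isg15 are shown as those of a higher member of this list. Capitals mark matches to the interferon response element-like motif GAAANNGAAA or its reverse complement TTTCNNTTTC, from RefSeq on GRCm38.p6.
Isg15, chr4:156200819-156201068, minus strand: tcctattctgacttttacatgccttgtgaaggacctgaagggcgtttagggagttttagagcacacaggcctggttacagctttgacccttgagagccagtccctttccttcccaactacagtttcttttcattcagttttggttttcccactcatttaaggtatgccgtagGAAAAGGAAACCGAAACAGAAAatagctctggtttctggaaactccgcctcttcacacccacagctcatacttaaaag
The window holds 3 overlapping matches that begin 78, 72 and 66 bases before the start. The motif was found in 2 of the 4 windows of the higher members, in 2 of the 5 windows of the 3 lower members that had one, and in 2.98% of all windows. These shares were not tested.

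**Figure D5:**
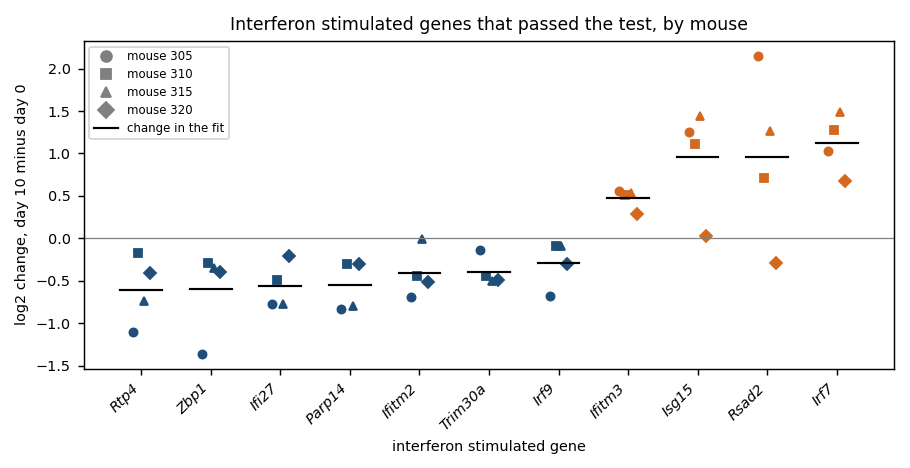
Difference between day 10 and day 0 within each mouse for 11 of the 12 interferon stimulated genes that passed the test. Symbols are mice, black lines the change in the fit, blue marks lower and orange higher genes. Mouse 320 lies lowest among the mice for each of the 4 higher genes, and Rsad2 spans a fall in mouse 320 and rises in the other 3.

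Among lymphocyte genes the calls were unevenly spread over the lists, which also differed in brightness. The median class was 9 for the naive T cell list and 8 for the T cell receptor list. It was 8.5 for the B cell receptor list and 5 for the cytotoxic and NK cell list. Of 1516 genes each, classes 5, 8 and 9 held 27, 291 and 467 lower genes, and over all genes 9.05% were lower. Whether these lists differed from genes of like brightness was not tested. In the list of naive T cell and homing genes 7 of 18 fell and 1, Klf2, rose (median -0.22). Ets1, a factor of resting T cells, had 0.00, 0.01, 0.21 and -0.32 at day 0 and -0.70, -0.62, -0.80 and -0.65 at day 10. It fell by 0.67 (SE 0.12, limma adjusted p = 0.0024) by its brightest probe, while its 3 other probes changed by -0.20 to -0.02. Satb1, which organises chromatin in thymocytes, fell by 0.47 (SE 0.10) and by 0.58 by its other probe. Tcf7, a factor of naive and memory T cells, fell by 0.37 (SE 0.08). Of 26 genes of the T cell receptor and its signalling 2 fell, or 4 without the day 0 array of mouse 320, and Cd3g, a chain of the receptor complex, changed by -0.18 (SE 0.08) and did not pass. Among 23 cytotoxic and NK cell genes 1 fell, the kinase Txk, by 0.50 (SE 0.09).

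For B cells, 4 of 20 genes of the B cell receptor and its signalling fell, with a median of -0.23. Prkcb, a kinase downstream of the receptor, fell by 0.43 (SE 0.08), with day 10 levels of -0.67 to -0.49 below the -0.34 to -0.02 of day 0. Cd79a, a chain of the receptor itself, changed by 0.11 (SE 0.07, limma adjusted p = 0.357). Pou2af1, a coactivator of immunoglobulin genes, fell by 0.56 (SE 0.11). The count of 4 was 7 without the day 0 array of mouse 320 and 2 without the day 10 array of mouse 315. Platelet genes had 3 higher members of 24 and none lower, and none of the 3 kept its call without the day 0 array of mouse 305.

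In the lists of general cell function most members did not pass the test. Lower calls were frequent among all bright genes: of 1516 genes each, brightness classes 8, 9 and 10 held 291, 467 and 351. The median class was 8 for the splicing and mitochondrial ribosomal lists, 9 for the proteasome and 10 for the cytosolic ribosomal list. Whether a list differed from genes of like brightness was not tested. Of 27 splicing kinases and SR proteins 9 fell and none rose, with a median of -0.22. Clk4, a kinase of splicing factors, had 0.20, 0.14, 0.19 and -0.06 at day 0 and -0.47, -0.34, -0.81 and -0.44 at day 10 (change -0.63, SE 0.10, limma adjusted p = 0.00104), and 1 of its other probes changed by 0.41. Hnrnpa1, a splicing repressor, fell by 0.61 (SE 0.10), and Clk1 by 0.48 (SE 0.10) with a second probe at -0.44. The count of 9 was 5 without the day 10 array of mouse 315 and 6 without the day 0 array of mouse 305.

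Of 76 mitochondrial ribosomal proteins 17 fell and none rose, and without the day 0 array of mouse 305 the count was 4, and 23 without that of mouse 320. Mrpl33, a protein of the large subunit, had 0.27, 0.48, 0.50 and 0.20 at day 0 and -0.62, -0.30, -0.29 and -0.32 at day 10 (change -0.75, SE 0.10, limma adjusted p = 0.000549). Of 72 cytosolic ribosomal proteins 7 rose and 10 fell, and the lower count was 6 without the day 0 array of mouse 305 and 22 without that of mouse 320. Rplp0, the stalk protein often used as a reference gene, rose by 0.84 (SE 0.15) but was below 0 with 1 median per array, and Rpl36, of the large subunit, fell by 0.43 (SE 0.08). Ribosomal protein genes have many near-identical pseudogenes, so their probes can share signal. Of 35 constitutive proteasome subunits 8 fell and 1 rose. Without the day 0 array of mouse 305 the lower count was 1. Without that of mouse 320 the lower count was 12 and the higher count 2.

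The 2 lists of dividing cells had medians of unlike sign, and their difference was not tested. The DNA replication median changed sign in 2 alternatives and the mitotic median in 1. Of 29 DNA replication genes 2 rose and 4 fell (median -0.02), and 1 rose without the day 0 array of mouse 320. Of 26 mitotic genes 4 rose and 2 fell (median 0.12). Without the day 0 array of mouse 305 none rose, while 6 rose and 1 fell without that of mouse 320. Mki67, the marker of cycling cells, had -0.16, -0.20, -0.04 and 0.59 at day 0 and 0.68, 0.85, 0.58 and 1.10 at day 10 (change 0.76, SE 0.22, limma adjusted p = 0.0262), with a call that ended when any 1 of 4 arrays was left out (highest adjusted p 0.0931). Ccnd2, a cyclin of lymphocytes, fell by 0.57 (SE 0.11). Of 14 genes of eosinophils, basophils and mast cells 2 rose and 1 fell (median 0.04). The one that fell was Hdc, which makes histamine and is also in the neutrophil list, by 0.84 (SE 0.20, limma adjusted p = 0.0114), from between 0.54 and 1.62 to between -0.19 and 0.41. The mast cell and basophil genes Ms4a2, a chain of the IgE receptor, and Prss34, a protease, rose by 0.44 (SE 0.11) and 0.37 (SE 0.09). Their day 0 levels lay between -0.11 and 0.00 and their day 10 levels between 0.06 and 0.80. The call of Ms4a2 ended without the day 10 array of mouse 320 (adjusted p = 0.0509).

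Genes of the liver and of hepatoma were looked for because the inoculated cells come from that tissue. Afp, alpha-fetoprotein, was well above background on all 8 arrays, those before inoculation included. Its levels were 0.03, 0.08, 0.06 and 0.09 at day 0 and -0.09, 0.00, -0.13 and 0.06 at day 10 (change -0.10, SE 0.06, limma adjusted p = 0.272). Alb, albumin, was well above background on no day 0 array and on 2 day 10 arrays, and changed by 0.19 (SE 0.13, limma adjusted p = 0.347). Alb passed under other scalings, by 0.69 with the median of all probes (limma adjusted p = 0.0016) and 0.72 with the median of the genes tested (0.0204). With the log ratio of the scanner software it changed by 2.26 (0.0125). With the median of the genes tested, however, the dimmest 10% of all genes also rose, by a median of 0.48. The part of low brightness in these changes of Alb was not tested. Of 13 tested members 2 rose, Apoc1, an apolipoprotein that macrophages also make, by 0.68 (SE 0.21) and the imprinted RNA H19 by 0.19 (SE 0.06). Both calls ended when any 1 of 6 arrays was left out (highest adjusted p 0.143).

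Over all genes tested, the 4 day 10 arrays lay below every day 0 array for 12.1% and above every one for 8.75%. A single gene was called while above background on 1 day only: Cdh5, a cadherin of endothelium, was well above background in Cy5 on the 4 day 0 arrays and on no day 10 array. Per channel its day 0 signal was at least 1.05-fold higher, while its ratio to the reference rose by 0.15 (SE 0.05, limma adjusted p = 0.05), a call that ended when any 1 of 7 arrays was left out (highest adjusted p 0.201). In 14 genes different probes were called in opposite directions, such as Tfam, the packaging factor of mitochondrial DNA, with 0.98 by its brightest probe and -0.33 by another.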

How the data were processed

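RNA of whole blood was measured on 2-colour Agilent arrays. Per the file headers the authors scanned them with Agilent Feature Extraction 9.1.3.1, and the deposited scanner files give the mean intensity and local background intensity of each spot and a log10 ratio of red over green; the deposited value table equals that log10 ratio for 900360 of 900360 values within 1e-06. Cy5 held the mouse sample and Cy3 the common reference on every array, with no dye swap.

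From the intensities, background was corrected with normexp (offset 50) and ratios were normalised by loess within each array, with control spots at weight 0. Probes well above background in Cy5 on at least 4 of the 20 arrays and usable on at least 3 a day were kept (20920 of 41174), and the brightest stood for its gene. Limma 3.58.1 in R 4.3.3 was fitted to all 20 blood arrays with day as the factor, and p-values were adjusted by Benjamini-Hochberg over 15161 genes at 0.05. The scripts were tested on simulated data. Genes were named from RefSeq tables by accession (23374 probes), symbol (6733) or synonym (2919), and otherwise kept the name in the file (8148).

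The same 4 animals were bled on each day, so the mouse number pairs the samples, and it was used as a block in an alternative. Deviations from the day means correlated between the day 0 and day 10 arrays of the same mouse at -0.154 to 0.153. The mean was -0.0325 for the same mouse and 0.0104 for different mice. The genes named are the 12 highest and 12 lowest with the same sign in all 4 mice, the 10 smallest p-values, up to 6 called members by p and the first 2 of each list, genes with probes called in opposite directions, the 4 with the widest range between mice and genes above background on 1 day only. The lists and members were chosen with earlier results of these data known. Some genes are not reported here.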

Additional observations from a re-analysis of the deposited data

Results flagged for a closer look

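In 12 of 197 groups of 4 arrays, each the levels of 1 named gene on 1 day, a single array lay far from the other 3, a rule that chance meets in about 1 of 20 groups. Mouse 305 gave 7 of these. At day 0 its levels of Hp (0.46) and H19 (-0.15) were far below and its level of Zbp1 (1.11) far above those of the other mice. At day 10 its levels of Mrpl33 (-0.62), Tcf7 (-0.46) and Zbp1 (-0.25) were far below, and that of Gabarapl2 (1.26) far above. Mouse 320 stood apart at day 0 for Irf7 (0.96, against at most 0.20 in the others) and Rpl36 (-0.26), and at day 10 for Stbd1 (3.51, against at most 0.66). The day 10 levels of Satb1 in mouse 315 (-0.48) and of Txk in mouse 310 (0.00746) were the others.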

How the results depend on the processing

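Day and slide cannot be told apart, and 4 arrays a day limit the precision. The counts of 764 higher and 1372 lower genes were 12 and 7101 with the median of all probes in place of loess, 4024 and 4517 with the median of the genes tested, 1981 and 2819 with the log ratio of the scanner software, 1325 and 2581 with the Cy5 channel alone, and 2563 and 3529 without background correction. The median change of all genes was -0.47 with the median of all probes and -0.15 with the scanner ratio. Fitted to only the 8 arrays the counts were 433 and 525, and 496 and 206 with the replicate block added. With the mouse number as a block in the fit of all arrays, which pairs the samples, they were 1126 and 1489, and 51 of the 2136 calls were lost. Of the 2136 calls 592 were kept with the 8 arrays and the block, 904 with the 8 arrays, 810 with scaling between arrays (1125 and 1540 genes), 871 with the median of all probes, 1450 with that of the genes tested, 1093 with Cy5 alone and 1095 with the scanner ratio, where 60 reversed. Without 1 array at a time they ran from 282 to 1087 and from 563 to 1761. With non-uniform spots at weight 0, chosen after seeing the data, they were 829 and 1276. Directions reversed with the median of all probes for Cd300lg (-0.015), Ftl1 (-0.21), Gabarapl2 (-0.0644), Hba-a1 (-0.60), Hbb-bh1 (-0.13), Hbb-y (-0.11), Hbq1a (-0.22), Hbq1b (-0.23), Ifitm3 (-0.50), Isg15 (-0.0366), Oaz1 (-0.0426), Ppox (-0.14), Rplp0 (-0.29), Rsad2 (-0.18), Stfa3 (-0.0093) and Tfam (-0.15). They reversed with the median of the genes tested for Ftl1 (-0.17), Gabarapl2 (-0.0336), Hba-a1 (-0.44), Hbb-bh1 (-0.10), Hbb-y (-0.0772), Hbq1a (-0.19), Hbq1b (-0.20), Ifitm3 (-0.47), Isg15 (-0.00573), Oaz1 (-0.0118), Ppox (-0.11), Rplp0 (-0.26), Rsad2 (-0.14) and Tfam (-0.12). With Cy5 alone they reversed for Aqp2 (-0.48), Cdh5 (-0.0902), Fbxl19 (-0.67), Gabarapl2 (-0.0495), Hba-a1 (-0.53), Oaz1 (-0.44), Rsad2 (-0.0602) and Tfam (-0.13), and with the mean of all kept probes for Csf2rb (0.00386). The cause was not tested.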
